A study of Mus musculus with 9 samples.

Results

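The 9 Wnt ligand genes Wnt2, Wnt2b, Wnt3, Wnt4, Wnt5a, Wnt7a, Wnt7b, Wnt9a and Wnt10a were followed in RNA of the mouse dentate gyrus. They were taken by symbol from the 24015 rows of each deposited table, where they are 9 of 19 Wnt ligand genes. The tissue was microdissected from adult C57BL/6 mice of 8 weeks, and every library was made from 1 animal. The groups E0, E1 and E4 hold 3 mice each, and the labels give neither a treatment nor what the number after the E counts. From what is known of the study, E0 is the tissue before, E1 the tissue 1 h after and E4 the tissue 4 h after electroconvulsive stimulation, which drives granule neurons, the principal cells of the dentate gyrus, to fire together. No genotype other than the strain is named, and E0 is the control of both comparisons.

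Wnt proteins are secreted, lipid-modified glycoproteins that bind Frizzled receptors on the same or a neighbouring cell. With the co-receptors Lrp5 and Lrp6 they stabilise beta-catenin, which then acts with TCF factors in the nucleus, and with other co-receptors they act on the cytoskeleton or on calcium. In the hippocampus the family is known for roles in dendrite growth, in synapse assembly and in the birth of new granule neurons.

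The ligands did not move as 1 group. In E1, Wnt9a and Wnt7b fell while Wnt4 and Wnt5a rose. In E4, Wnt9a was still low, Wnt7b had passed above its E0 level, Wnt10a rose and Wnt7a fell. Genes with an authors' adjusted p below 0.05 are counted as called. In E1, 4 of 9 ligands were called in the authors' deposited table, 2 raised and 2 lowered, where 35.5% of all 15660 genes tested were called (20.6% raised and 15.0% lowered). In the authors' deposited table for E4, 4 of the 8 ligands with an adjusted p were called, 2 raised and 2 lowered, where 39.0% of 14455 genes were called (20.7% raised and 18.3% lowered). Read against these shares, the counts do not set the ligands apart from other genes. Over the ligands tested the median log2 fold change was 0.51 in E1 and 0.07 in E4, beside 0.02 and -0.01 over all genes tested. In all, 6 ligands were called at least once, and only Wnt9a was called in both comparisons in 1 direction.

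**Figure D1:**
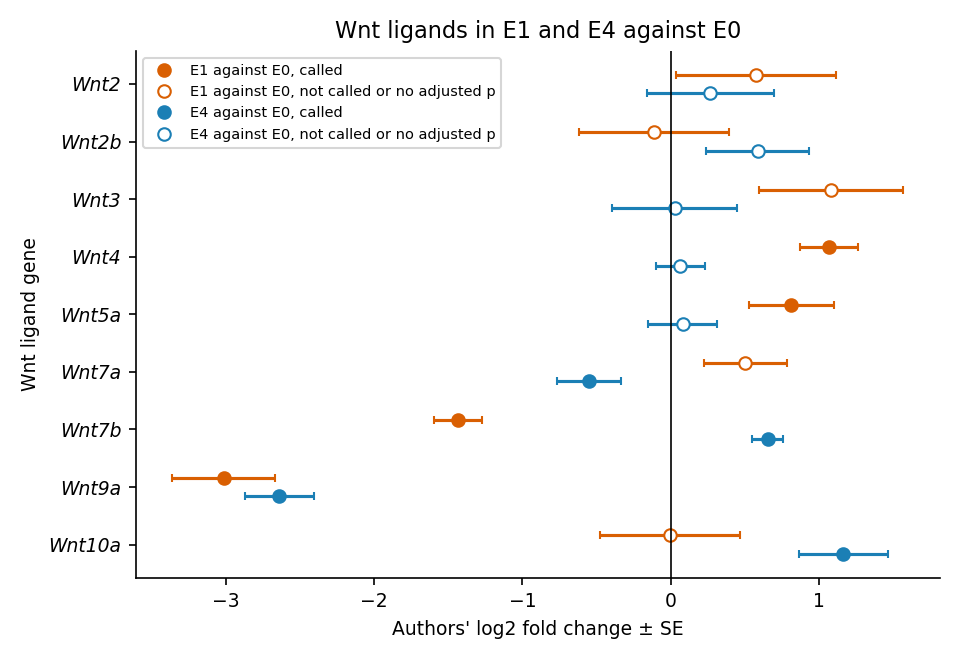
The authors' log2 fold change of each Wnt ligand gene in E1 (orange) and E4 (blue) against E0, with bars of 1 SE; filled points were called at an adjusted p below 0.05 and open points were not called or have no adjusted p. Wnt9a lies left of 0 in both comparisons, at -3.02 and -2.64, and Wnt7b lies on opposite sides of 0, at -1.43 and 0.66.

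The deposited tables hold a mean count per gene over the 6 libraries of a comparison and no value for a single mouse. Because a mean count is a sum of whole reads divided by library size factors, printed to 15 and 10 significant digits, the reads of each library could be solved for genes of low and middle level. This gave 8 of the 9 ligands, 7 with 1 solution, while Wnt4 had 5 candidate solutions. For Wnt4 the one with the most even libraries was taken, in which libraries of a group differed by at most 1.32-fold, against at least 15.3-fold in each of the others. Wnt7b, whose mean count is above the limit of 200 set for the search, was not searched and is given by group level only. Libraries are named a, b and c by depth within a group, since nothing ties them to the numbered replicates. Depth was about 6140000 to 10960000 reads in genes in E0, 10020000 to 13550000 in E4 and only 1930000 to 4740000 in E1. In the authors' deposited tables the SE was larger in E1 than in E4 for each of the 9 ligands. Normalised counts below are reads divided by size factors, on 1 scale for all 9 libraries.

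Compared per kilobase of the longest annotated transcript, Wnt7b stood highest among the 9 ligands in every group. In E0 its level was 332 normalised counts per kb, followed by Wnt9a at 58.7. Wnt4 at 37.9 and Wnt7a at 35.0 had overlapping libraries, and so had Wnt5a at 10.8 and Wnt10a at 8.96 normalised counts per kb. Wnt2b at 5.40, Wnt3 at 3.16 and Wnt2 at 1.04 were the lowest, with no overlap between neighbours in this order. Wnt9a moved from rank 2 in E0 to rank 7 in E1, at 5.48 normalised counts per kb, and stayed at rank 7 in E4, at 8.15. Its libraries overlapped those of Wnt2, Wnt2b and Wnt10a in E1 and those of Wnt2b, Wnt3 and Wnt5a in E4. Rank 7 is therefore not resolved from these ligands. Wnt4 took rank 2 in E1 at 82.3 normalised counts per kb, and Wnt10a reached rank 4 in E4 at 22.7. Both overlapped the libraries of Wnt7a in that group, so their order against Wnt7a is not resolved.

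**Figure D2:**
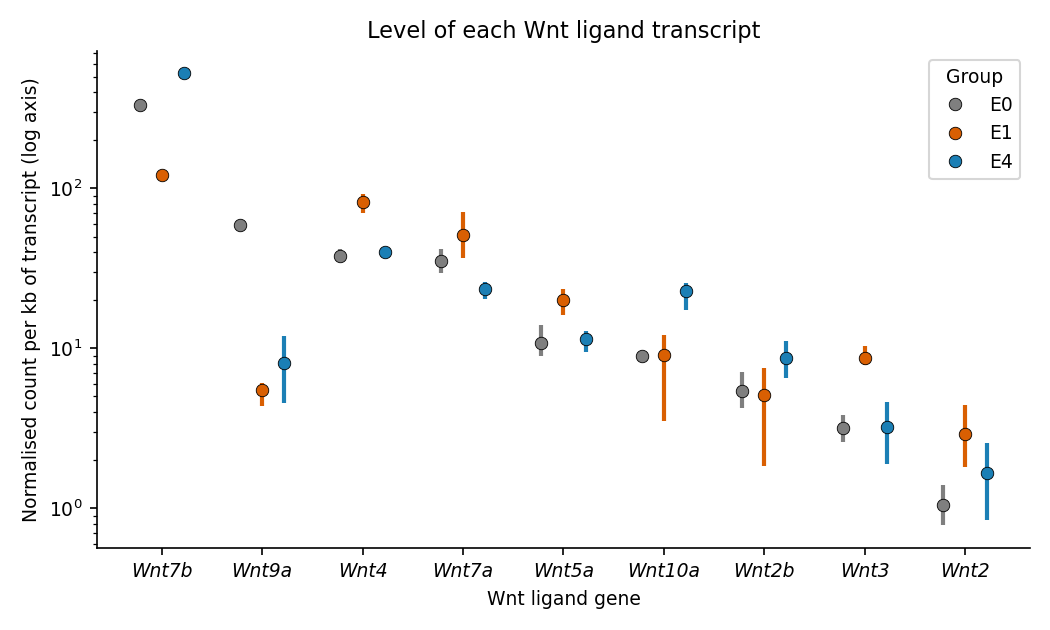
Level of each Wnt ligand transcript in normalised counts per kb (log axis) in E0, E1 and E4; points are group means, bars run from the lowest to the highest of 3 libraries, and Wnt7b, whose level comes from the authors' mean count and fold change, has no bar. Wnt7b is the highest of the 9 in each group, and Wnt9a drops from 58.7 in E0 to 5.48 in E1.

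Wnt9a, a ligand best known from joint formation, had the lowest fold change of the 9 in each comparison. Its RefSeq promoter entry in GRCm38.p6, at chr11:59306680-59306929 on the plus strand, is shown as the 250 bases before the start, beside those of Wnt4 at chr4:137277385-137277634 on the plus strand and Wnt7a at chr6:91411354-91411603 on the minus strand. These are the called ligands that have an entry, and they moved in different ways. The build is not the mm9 of the deposited tables. Capitals mark matches to TATAA and CACGTG.
Wnt9a: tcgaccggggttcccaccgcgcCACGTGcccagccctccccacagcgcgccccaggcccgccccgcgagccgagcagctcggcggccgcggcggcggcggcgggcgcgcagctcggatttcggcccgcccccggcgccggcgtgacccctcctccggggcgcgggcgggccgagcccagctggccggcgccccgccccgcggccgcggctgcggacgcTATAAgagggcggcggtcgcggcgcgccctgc
Wnt4: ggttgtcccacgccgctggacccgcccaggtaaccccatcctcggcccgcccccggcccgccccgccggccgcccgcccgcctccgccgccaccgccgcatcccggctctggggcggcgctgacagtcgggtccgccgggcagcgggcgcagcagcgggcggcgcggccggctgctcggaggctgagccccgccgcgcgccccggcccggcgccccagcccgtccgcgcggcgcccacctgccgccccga
Wnt7a: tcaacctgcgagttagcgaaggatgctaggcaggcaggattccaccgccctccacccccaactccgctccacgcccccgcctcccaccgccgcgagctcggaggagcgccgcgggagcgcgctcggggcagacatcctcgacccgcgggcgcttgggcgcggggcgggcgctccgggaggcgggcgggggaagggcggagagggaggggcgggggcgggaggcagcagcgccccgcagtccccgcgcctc
Entries were found for 6 of the 9 ligands, and none of the 6 held the AP-1 motif TGANTCA, the CRE motif TGACGTCA, the Egr motif GCGTGGGCG or the TCF motif CTTTGA on either strand. Of 32851 RefSeq promoters of this length, 6.75%, 1.55%, 0.536% and 13.8% held them, in that order. TATAA and CACGTG were added after the sequences had been read, and only the Wnt9a promoter of the 6 held them. TATAA begins 32 bases and CACGTG 228 bases before its start, and 22.8% and 6.02% of all promoters hold these letters. The 3 promoters shown are rich in G and C, at 84.4%, 85.2% and 77.6% for Wnt9a, Wnt4 and Wnt7a, beside a median of 52.4% over all promoters. So are those of Wnt2b, Wnt3 and Wnt2, which were never called, at 80.8%, 68% and 63.6%. All 6 lie above the third quartile of 61.2% over all promoters. A match of letters is a description of the sequence and not of binding.

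In E0, Wnt9a had 236, 183 and 115 reads in libraries a, b and c, or 208, 195 and 181 normalised counts. In E1 it had 10, 5 and 4 reads, or 20.3, 14.4 and 19.9 normalised counts. In E4 it had 37, 16 and 41 reads, or 26.4, 15.2 and 39.6 normalised counts. Every E0 library lay far above every library of E1 and E4, and the E1 and E4 libraries overlapped. The mean normalised count of Wnt9a was 10.7-fold lower in E1 and 7.20-fold lower in E4 than in E0. In the authors' deposited tables its log2 fold change was -3.02 ± 0.35 (SE, adjusted p = 7.54e-17, DESeq2) in E1 and -2.64 ± 0.23 (SE, adjusted p = 4.62e-28, DESeq2) in E4. E4 minus E1 was 0.38 ± 0.42 on the log2 scale (adjusted p = 0.513 from the normal test described with the contrast of the time points below), with no difference shown beyond its error.

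Wnt7b, known for promoting dendrite branching in hippocampal neurons, was the most abundant ligand and the only one called in both comparisons in opposite directions. From the authors' mean count and fold change, its group level was 1130 normalised counts in E0, 414 in E1 and 1781 in E4. The E0 level computed from the table for E1 alone was 1116, so both tables place it at about 1 value. In the authors' deposited table for E1 it fell to a log2 fold change of -1.43 ± 0.16 (SE, adjusted p = 1.77e-17, DESeq2), 2.70-fold lower than E0. In the authors' deposited table for E4 it rose by 0.66 ± 0.11 (SE, adjusted p = 6.73e-09, DESeq2), 1.58-fold above E0.

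Genes that mark granule neurons were lowered in E1, as were Wnt7b, Wnt9a and most astrocyte markers. No value here shows which cells express Wnt7b or Wnt9a. All 8 granule neuron markers were lowered in E1 in the authors' deposited table. Of all genes tested, 15.0% were lowered and 20.6% raised in E1, and 18.3% and 20.7% in E4. A single call in a marker list below is not set apart from these shares. The summed level of the 8 granule neuron markers fell from 10821 to 5769 in E1, a ratio of 0.533. These sums are on the scale of that table alone and not on the 1 scale of all 9 libraries. In the authors' deposited table for E4, 3 of these 8 were raised and 4 lowered, with a summed ratio of 0.893. The 3 raised in E4 were Bcl11b, Prox1 and C1ql2, with log2 fold changes of 0.40, 0.41 and 0.52 after -1.17, -0.66 and -0.71 in E1 in the authors' deposited tables. The 4 lowered in E4 were Tdo2, Dsp, Lct and Calb1, with log2 fold changes of -4.0, -1.05, -0.92 and -0.78 after -1.97, -2.41, -1.41 and -0.32 in E1, and Rfx3 had -0.03 in E4 after -0.32 in E1, in the authors' deposited tables. In E1, 5 of 6 astrocyte markers were lowered (summed ratio 0.659). Raised in E1 were 5 of 7 GABAergic interneuron markers (summed ratio 1.70) and 3 of 5 endothelial and mural markers (1.74). Of 6 CA pyramidal markers, 3 were raised and 1 lowered in E1 (1.90). Of 4 mossy cell markers 2 were raised (summed ratio 1.099), and of 5 Cajal-Retzius markers 1 was raised (1.19). In E1, 1 of 6 oligodendrocyte markers was raised and 1 lowered (1.08), 1 of 5 microglia markers and 1 of 4 choroid plexus markers tested were lowered (0.748 and 0.590), and none of 6 meningeal markers was called (0.989; none at an unadjusted p below 0.05 by DESeq2). In E4, 2 of 6 meningeal fibroblast markers were lowered (summed ratio 0.599), and none of the 6 astrocyte markers was called (0.992; 1 at an unadjusted p below 0.05). Also in E4, 1 of 6 CA pyramidal markers was raised and 1 lowered (1.36), 1 of 7 interneuron markers and 1 of 4 Cajal-Retzius markers tested were raised (1.11 and 1.12), and 1 of 5 microglia markers was lowered (0.894). No mossy cell (0.828), oligodendrocyte (0.991), endothelial and mural (1.05) or choroid plexus (0.791) marker was called in E4, where 0, 0, 1 and 1 of them had an unadjusted p below 0.05. No marker was listed at 0, and the part of these shifts in the ligand values was not tested. In bulk tissue, fewer cells of a type, less RNA per cell and regulation of the marker genes themselves were not told apart, and none was tested.

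Wnt4 and Wnt5a were high in E1 and near their E0 level in E4. Wnt4, needed for kidney tubules and the female reproductive tract, had 176, 149 and 151 normalised counts in E0, 294, 388 and 353 in E1 and 170, 172 and 158 in E4, in the most even of its 5 solutions. There the E1 libraries lay above all others, a separation of E1 from E0 that the choice of solution fixes, since none of the other 4 has it. The mean was 2.17-fold higher in E1 than in E0 in the solution used and 1.82-fold to 3.17-fold higher over the 5, and the log2 fold change in the authors' deposited table was 1.07 ± 0.20 (SE, adjusted p = 5.51e-07, DESeq2). In E4 it was 0.06 ± 0.17 (SE, adjusted p = 0.801) in the authors' deposited table, with a 95% interval from -0.26 to 0.39.

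Wnt5a, the ligand most used as a model of signalling without beta-catenin, had 65.4, 98.0 and 63.1 normalised counts in E0, 114, 164 and 144 in E1 and 89.3, 85.2 and 66.7 in E4. Its E1 libraries lay above all others. The mean was 1.86-fold higher in E1 than in E0, with a log2 fold change of 0.82 ± 0.29 (SE, adjusted p = 0.0151, DESeq2) in the authors' deposited table. In E4 the authors' deposited table gave 0.08 ± 0.23 (SE, adjusted p = 0.824).

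Wnt10a and Wnt7a were called in E4 only, in opposite directions. Wnt10a, known from teeth, hair and skin, had 20.3, 22.4 and 23.7 normalised counts in E0, 28.4, 8.62 and 29.8 in E1 and 42.9, 63.5 and 61.8 in E4. All E4 libraries lay above all others, and the E1 libraries spread around those of E0. The mean was 2.53-fold higher in E4 than in E0, and the authors' deposited table gave a log2 fold change of 1.17 ± 0.30 (SE, adjusted p = 0.000466, DESeq2). In E1 the authors' deposited table gave -0.00 ± 0.47 (SE, adjusted p = 0.996). Its 95% interval ran from -0.93 to 0.93, so smaller changes of either sign were not excluded.

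Wnt7a, known for organising presynaptic terminals, had 132, 93.8 and 107 normalised counts in E0, 116, 227 and 144 in E1 and 64.3, 76.7 and 82.1 in E4. Its E4 libraries lay below all others, and E1 overlapped E0. The mean was 1.49-fold lower in E4 than in E0, and in the authors' deposited table the log2 fold change was -0.55 ± 0.21 (SE, adjusted p = 0.0283, DESeq2). In E1 it was 0.51 ± 0.28 (SE, adjusted p = 0.150) in the authors' deposited table.

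The other 3 ligands were called in neither comparison and had few reads. Wnt3, known for promoting the birth of granule neurons in the adult dentate gyrus, had 9, 11 and 6 reads in E0, 12, 11 and 5 in E1 and 20, 10 and 6 in E4. Divided by size factors, these are 7.95, 11.7 and 9.46 normalised counts in E0, 24.3, 31.6 and 24.9 in E1 and 14.3, 9.47 and 5.80 in E4. The 3 E1 libraries lay above the other 6. The authors' deposited table gave a log2 fold change of 1.08 ± 0.49 (SE, adjusted p = 0.0688, DESeq2) in E1, short of the threshold, and 0.03 ± 0.42 (SE, adjusted p = 0.968) in E4.

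Wnt2b, which takes part in lung formation with Wnt2, had 14.1, 15.98 and 23.7 normalised counts in E0, 6.09, 20.1 and 24.9 in E1 and 28.6, 21.8 and 36.7 in E4. The 3 groups overlapped. Its log2 fold change in the authors' deposited tables was -0.11 ± 0.51 (SE, adjusted p = 0.895) in E1 and 0.59 ± 0.35 (SE, adjusted p = 0.179) in E4. Wnt2, described in cultured hippocampal neurons as an activity-induced gene for dendrite growth, had 2 reads in each library of E0 and of E1, and 5, 2 and 6 in E4. Because the E1 libraries are shallower, these are 1.77, 2.13 and 3.15 normalised counts in E0, 4.06, 5.75 and 9.94 in E1 and 3.57, 1.89 and 5.80 in E4. The E1 libraries lay above those of E0 without overlap and overlapped those of E4, but each value rests on 2 to 6 reads. The authors' deposited table for E1 gave it a log2 fold change of 0.58 ± 0.54 (SE, adjusted p = 0.443) and the table for E4 no adjusted p.

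**Figure D3:**
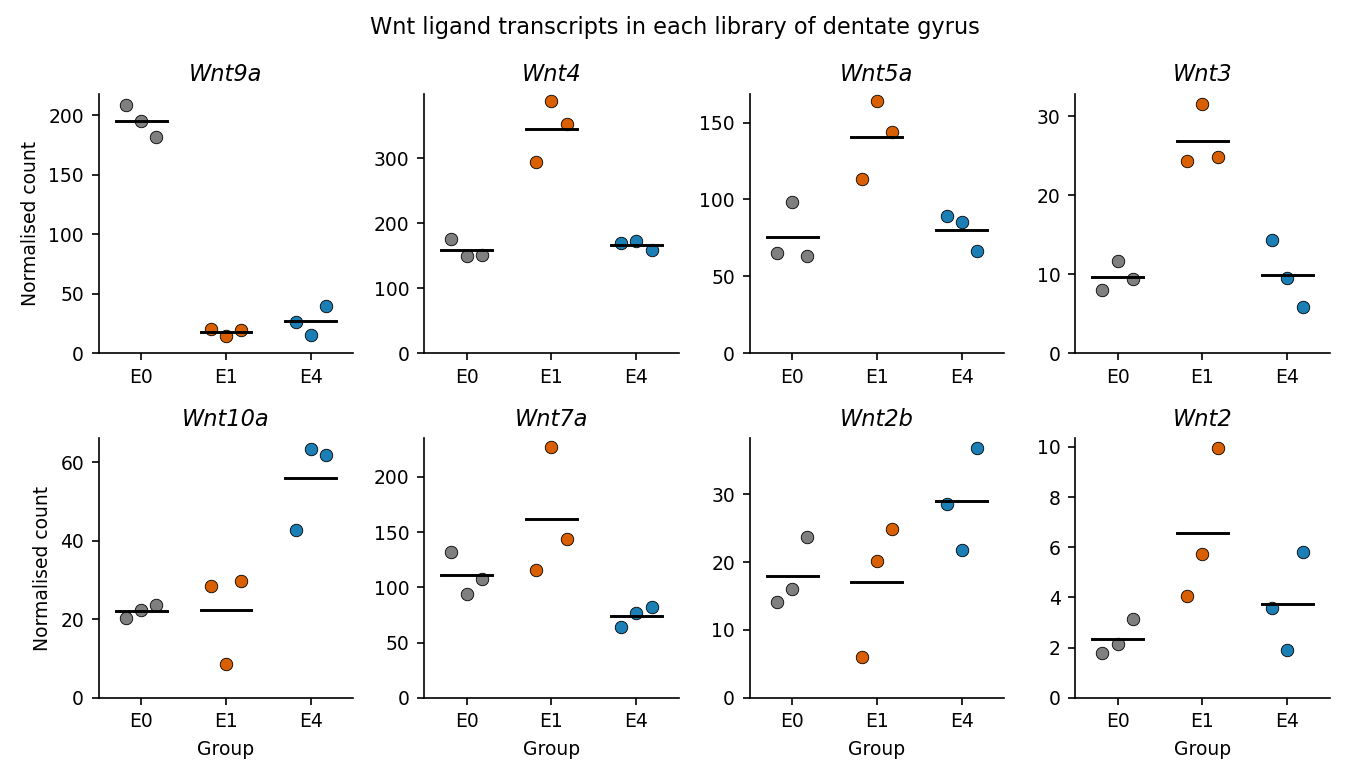
Normalised counts (linear axes from 0, each panel with its own range) of the 8 Wnt ligand genes whose reads could be solved, in the 3 libraries of E0 (grey), E1 (orange) and E4 (blue); lines are group means. Wnt9a is high in E0 alone, Wnt4 (in the solution used), Wnt5a and Wnt3 are highest in the 3 E1 libraries, and Wnt10a is highest in the 3 E4 libraries.

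No deposited table compares E4 with E1. The difference between a gene's log2 fold changes was therefore divided by the combined SE (the square root of the summed squares), compared with a normal distribution in a two-sided test and adjusted by the Benjamini-Hochberg method over the 12769 genes whose mean count reached 10 in each of the 2 tables. Of these genes 36.7% were called, 17.7% higher and 19.0% lower in E4. Among the 6 ligands that could be tested, 3 were called. Wnt7b was 2.09 ± 0.19 higher in E4 than in E1 on the log2 scale (SE, adjusted p = 2.98e-25, normal test across genes), a 4.25-fold difference. Wnt4 had a difference of -1.005 ± 0.26 (SE, adjusted p = 0.000528) and Wnt7a of -1.06 ± 0.35 (SE, adjusted p = 0.00946), both lower in E4. For Wnt5a the difference was -0.73 ± 0.37 (SE, adjusted p = 0.107) and for Wnt10a 1.17 ± 0.56 (SE, adjusted p = 0.0884), past no threshold although the libraries of E1 and E4 did not overlap. Both comparisons use the same E0 libraries, a covariance that the test leaves out. With a covariance of 0.5 of the product of the SEs, Wnt5a (adjusted p = 0.0125, normal test across genes) and Wnt10a (adjusted p = 0.0114) were called too.

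**Figure D4:**
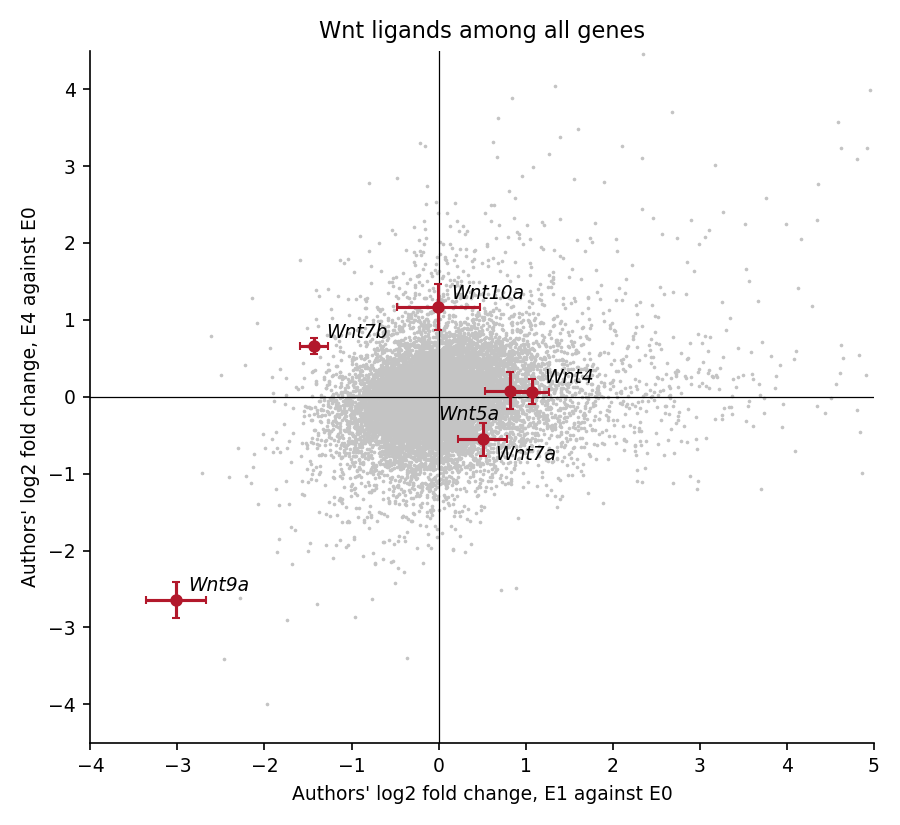
The authors' log2 fold change in E4 (vertical) against that in E1 (horizontal), both against the same E0 libraries, for the genes in the E4 against E1 test (grey, 8 of 12769 lie outside the axes) and the 6 Wnt ligands among them (red, bars of 1 SE). Wnt9a lies at the lower left at -3.02 and -2.64, Wnt7b at the upper left at -1.43 and 0.66, and Wnt4 and Wnt5a on the right near 0 in E4.

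For each called ligand the 3 genes with the nearest pair of log2 fold changes were looked up among 9512 genes whose mean count reached 50 in each of the 2 tables, by Euclidean distance over the 2 comparisons. Near Wnt7b were Stard8 (distance 0.020), Islr2 (0.082) and Lrtm2 (0.21), whose signs in E1 and E4 follow from how they were chosen. Wnt9a had no close neighbour, the nearest being Zcchc5 at 0.95, Plekhd1 at 1.30 and the neurotrophin gene Ntf3 at 1.31. Around Wnt4 lay Abcb1a, Suco and Nap1l5, and around Wnt5a Rassf1, Cacna2d2 and Tenc1, all within 0.049. Wnt7a had Brinp3, the neuropeptide gene Sst and Mfhas1 within 0.030, and Wnt10a had Ccsap, Cacnb1 and St3gal5 within 0.089. For Wnt4, Wnt5a, Wnt7a and Wnt10a these distances are smaller than the SE of the ligand's own fold change in each comparison. The same holds for Stard8 and Islr2 beside Wnt7b. Which genes lie nearest to these ligands is therefore not resolved.

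None of the other 10 Wnt ligand genes was called in the authors' deposited tables, in which 6 had an adjusted p in E1 and 4 in E4, and Wnt3a and Wnt8a were listed at 0. At an unadjusted p below 0.05 (DESeq2) there was 1 in each comparison. At an adjusted p of 0.0926 in E1 and 0.0574 in E4, Wnt16 came nearest, with 27, 16 and 16 reads in E0, 3, 4 and 0 in E1 and 17, 9 and 9 in E4. Wnt8b had 9, 5 and 4 reads in E0, none in E1 and 9, 4 and 2 in E4 (adjusted p of 0.124 and 0.590 in the authors' deposited tables). Wnt9b had 4, 5 and 5 reads in E0, 4, 5 and 2 in E1 and 9, 19 and 18 in E4. In normalised counts these are 3.53 to 7.89 in E0, 8.11 to 14.4 in E1 and 6.43 to 18.0 in E4, with adjusted p-values of 0.480 and 0.114 in the authors' deposited tables.

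The counts in the other lists stand beside calls for 35.5% of all genes tested in E1 and 39.0% in E4. Among 6 genes of Wnt lipidation and release, 2 were raised and 1 lowered in E1, and 1 was lowered in E4. The Wnt carrier Wls rose in E1 at 0.87 ± 0.23 (SE) and the glypican Gpc6 at 2.66 ± 0.18 (SE), while the Wnt-cleaving protease gene Trabd2b fell in E4 to -1.29 ± 0.26 (SE), all log2 fold changes of the authors' deposited tables. In E1, 2 of 10 Frizzled receptors were raised and in E4 3 of 9, with Fzd7 at 1.81 ± 0.20, Fzd8 at 1.17 ± 0.18 and Fzd3 at 0.53 ± 0.10 (SE) in E4 in the authors' deposited table. Of the co-receptors none of 8 was called in E1, nor at an unadjusted p below 0.05 by DESeq2, whereas 4 of 7 were raised and 1 lowered in E4. The raised ones included Gpr124, which acts with Wnt7 ligands at brain vessels, at 1.07 ± 0.20, Ryk at 0.65 ± 0.13 and Ror1 at 1.08 ± 0.29 (SE) in the authors' deposited table.

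Among secreted and membrane antagonists, 4 of 11 were raised and 2 lowered in E1, and 1 of 8 was raised and 2 lowered in E4. Dkk1, a blocker of Lrp5 and Lrp6, was raised in E1 with a mean count of 168.6 (adjusted p = 2.69e-65, DESeq2) in the authors' deposited table and is listed at 0 in the table for E4. It is 1 of 236 genes raised in E1 that have a mean count below 1 in the authors' deposited table for E4. Dkk3 rose in E1 at 1.96 ± 0.15 (SE), and Frzb, a secreted Wnt-binding antagonist, fell to -0.57 ± 0.15 in E1 and -1.39 ± 0.13 (SE) in E4 in the authors' deposited tables. Of the R-spondins, Lgr receptors and their ligases, 4 of 8 were raised and 1 lowered in E1, and 2 of 8 were raised and 3 lowered in E4. They included the receptor gene Lgr5 at 4.11 ± 0.35 in E1, Rspo3 at -1.97 ± 0.24 in E4 and the ligase gene Znrf3 at 0.75 ± 0.18 in E1 and 0.64 ± 0.13 (SE) in E4 in the authors' deposited tables.

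Inside the cell, 4 of 11 genes of the Dishevelled and destruction complex list were raised and 1 lowered in E1, and 6 were raised and 1 lowered in E4. Csnk1a1, a beta-catenin kinase, was raised in both at 0.74 ± 0.09 and 0.35 ± 0.08, Dvl1 at 0.83 ± 0.12 and 0.54 ± 0.10, and Apc2 was lowered at -0.55 ± 0.12 and -0.58 ± 0.11 (SE) in the authors' deposited tables. Of 8 TCF factors and coactivators, 1 was raised (Pygo1, 0.53 ± 0.22) and 1 lowered (Pygo2, -0.38 ± 0.15) in E1 and none was called in E4, nor at an unadjusted p below 0.05 by DESeq2, in the authors' deposited tables. Lef1 had 0.78 ± 0.40 (SE, adjusted p = 0.125) in E1 and -0.25 ± 0.32 (SE, adjusted p = 0.593) in E4 in the authors' deposited tables. Among 6 feedback targets, 2 were raised and 1 lowered in E1, and 2 were lowered in E4. Axin2, the most used readout of beta-catenin signalling, was at -0.44 ± 0.20 (SE, adjusted p = 0.0796) in E1 and 0.08 ± 0.14 (SE, adjusted p = 0.718) in E4 in the authors' deposited tables. It was chosen for mention after its values were seen. By the naming rule, Tnfrsf19 fell to -0.89 ± 0.14 and -0.57 ± 0.12, Myc rose in E1 at 1.51 ± 0.30, and Nkd2 was raised in E1 at 0.79 ± 0.28 and lowered in E4 at -1.12 ± 0.27 (SE) in the authors' deposited tables. In the planar polarity and calcium list, 1 of 12 was raised and 2 lowered in each comparison, with Nfatc4 at 3.18 ± 0.38 in E1, and Daam1 at -0.65 ± 0.11 and Prickle1 at 0.61 ± 0.14 (SE) in E4 in the authors' deposited tables. Over the 94 pathway genes, 20 of 86 tested were raised and 9 lowered in E1, and 17 of 79 were raised and 12 lowered in E4, shares near those of all genes.

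**Figure D5:**
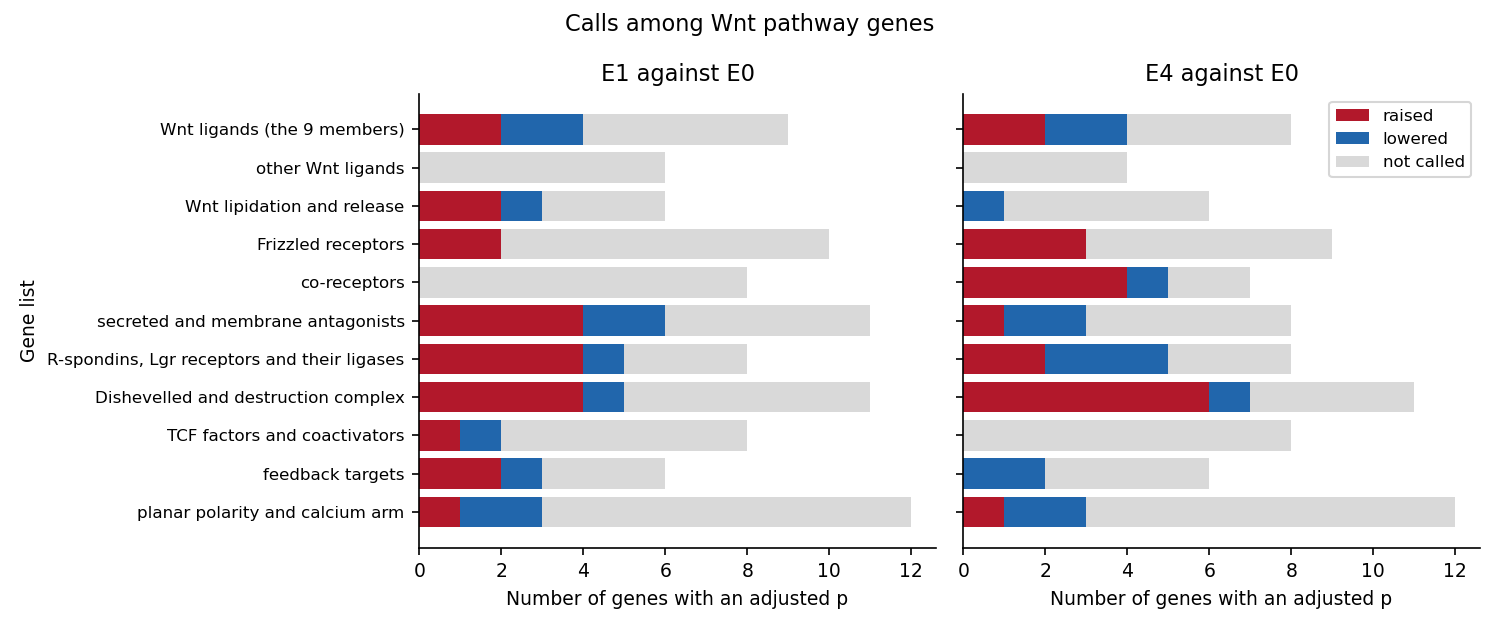
Number of genes with an adjusted p (horizontal) in the Wnt ligand list and each Wnt pathway list, split into raised (red), lowered (blue) and not called (grey) in E1 (left) and E4 (right) against E0. The co-receptors hold no call in E1 and 5 in E4, and the other Wnt ligands hold none in either.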

How the data were processed

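RNA of the dentate gyrus was sequenced from 9 mice in 3 groups, from samples grouped by their titles. The submitters' processing notes name TopHat2, DESeq2 and mm9 without versions. Annotation, counting and strand settings are not stated there. In the deposited tables the signal column, called mean count in the text, averages size-factor-scaled counts of 6 libraries, as its header names it. The deposited log2 fold changes and SEs, the deposited score (the Wald statistic) and the deposited p-values and adjusted p-values are the authors' own, and were used as given. Wherever a ligand with solved reads was called, the authors' log2 fold change lay nearer to 0 than the log2 ratio of mean normalised counts. For Wnt9a in E1 these were -3.02 and -3.42, and for Wnt10a in E4 1.17 and 1.34. The Wnt7b levels and the test of E4 against E1 rest on the authors' values.

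From these, reads per library were solved with Python 3.11.15, numpy 2.4.6, pandas 2.3.3 and scipy 1.17.1. The weight of 1 read in each library was read from genes with 1 read, a library was placed in E0 or the other group by the sign of the authors' fold change for those genes, and the group shared by both tables was taken as E0. Whole reads that give the printed mean count were then enumerated, for a mean count of 40 or more only within 0.8 log2 of the authors' fold change. A search over every split, added after seeing the data, gave for Wnt5a, Wnt7a and Wnt9a the same single solution and for Wnt4 again 5. Before the mean count for E1 was used, that search left 2 candidates for Wnt7a, 9 for Wnt9a and 67 for Wnt4. Of 300 genes with a mean count from 2 to 12, all 300 had exactly 1 solution for E0 and E4 and 298 for E1. In the comparison of E4 with E0, Wnt2b, Wnt10a, Wnt5a, Wnt7a, Wnt9a and Wnt4 lie above this range, so the check does not cover them. Levels per kb use GENCODE transcripts, and promoters are RefSeq entries of GRCm38.p6. Exact permutation of 3 against 3 cannot go below 0.1, so no test per ligand was run on the solved reads, and p-values come from fits across all genes.

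The ligands and lists were chosen with earlier results of these data known. Named are all 9 ligands, up to 3 genes of each list with the smallest adjusted p, and the 3 nearest genes of each called ligand. All granule neuron markers are also given, chosen after their values were seen. Alternatives were another threshold, adjustment, count minimum, centring, covariance and a trend on transcript length and GC, and, added after seeing the data, leaving out each library.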

Additional observations from a re-analysis of the deposited data

Results flagged for a closer look

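The change against E0 differed between E1 and E4, by the test of the difference itself, for 3 ligands. The log2 fold change in E4 minus that in E1 was 2.09 for Wnt7b, which was lowered in E1 and raised in E4. It was -1.005 for Wnt4, which was raised in E1 and not called in E4. It was -1.06 for Wnt7a, which was not called in E1 and lowered in E4. With 3 libraries a group, no test for an outlying library was run, and single libraries were only left out in turn, as given below.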

How the results depend on the processing

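The number of ligands called ranged from 3 to 5 in E1, from 3 to 4 in E4 and from 3 to 5 for E4 against E1 over the alternatives. The 5 for E4 against E1 came with a covariance of 0.5 for the shared E0, under which Wnt5a (adjusted p = 0.0125, normal test across genes) and Wnt10a (adjusted p = 0.0114) were called too. At a threshold of 0.01, Wnt5a in E1 (adjusted p = 0.0151, DESeq2) and Wnt7a in E4 (adjusted p = 0.0283, DESeq2) were no longer called. With a trend on transcript length and GC removed, Wnt3 in E1 was called at 1.21 (adjusted p = 0.0402, range over alternatives 0.0402 to 0.0794). In E1, signs turned for values near 0 that were not called: Wnt10a was 0.0122 after centring and 0.136 with the trend removed, and Wnt2b was 0.0492 with the trend removed. Calls in E1 for Wnt4, Wnt7b and Wnt9a, and in E4 for Wnt7b, Wnt9a and Wnt10a, held under the alternative thresholds, adjustments, filters, centring and trend. Leaving out 1 library at a time, chosen after seeing the data, kept the log2 ratio of Wnt9a between -3.51 and -3.28 in E1 and between -3.23 and -2.56 in E4. It turned the sign of ratios of ligands not called: Wnt2b (-0.45 to 0.33) and Wnt10a (-0.26 to 0.40) in E1, and Wnt3 (-0.35 to 0.29) and Wnt5a (-0.02 to 0.32) in E4. No paired analysis was possible because the deposited tables carry no replicate numbers. The authors' tests were not rerun without a replicate, which needs the counts of all genes per library. The shallow E1 libraries limit Wnt2, Wnt2b, Wnt3 and Wnt10a, and Wnt7b has no value per mouse.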
